A study of Mus musculus with 20 samples.

Results

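The olfactory receptor gene cluster of mouse chromosome 2 was taken as the interval chr2:85300000-89900000 of the mm9 genome build, 4.6 Mb in length, and its members are all peaks of the 12 deposited lists that overlap it by at least 1 base. It held 871 of the 1324083 peaks in these lists, against 102951 on the remaining 174.1 Mb of chromosome 2. TFIIIC accounted for 858 of the 871 peaks, and the other 8 lists together for 13. The rule uses position alone and no value of a peak, but the cluster was chosen with earlier results of these data known.

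The lists come from chromatin immunoprecipitation followed by sequencing (ChIP-seq) in mouse embryonic fibroblasts (MEFs), primary cells from E13.5 embryos of the C57BL/6 strain, fixed at passage 4 while cycling asynchronously. Wild-type cells (WT) were compared with Rb1L/L cells (RbL), homozygous for an Rb1 allele with a changed cleft in pRb, the site where proteins with an LXCXE motif bind. The series title places the study in the question of how pRb brings condensin II to promoters. H3K27me3 and TFIIIC have 2 libraries per genotype, CAP-D3 and CAP-H2 have 1, and 8 input samples have no list here. All cells were fixed in 1% formaldehyde, which for H3K27me3, CAP-D3 and CAP-H2 followed 2 mM of the protein crosslinker EGS. The labels do not say whether libraries of 1 genotype came from separate embryos or cultures, so p-values are relative to a spread that may be purely technical. The lists hold no expression values, so neither the identity of the cells nor the silence of the receptor genes was checked against marker genes here.

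Olfactory receptors are G protein-coupled receptors of sensory neurons in the nose. They are encoded by the largest gene family of the mouse genome, mostly in tandem clusters, each mature sensory neuron expresses 1 of them, and in cells such as fibroblasts the genes are as a rule silent. In the olfactory epithelium, silent receptor genes have been found in heterochromatin with H3K9 and H4K20 methylation, marks not measured here. H3K27me3 is set by Polycomb repressive complex 2 mainly at CpG-rich promoters of developmental regulators. TFIIIC binds the internal promoters of tRNA genes and other genes of RNA polymerase III, and also sites without that polymerase. CAP-D3 and CAP-H2 are subunits of condensin II, a ring-shaped complex that compacts chromosomes and stays in the nucleus during interphase.

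No annotation of mm9 was used, so peaks are given by position alone. For the make-up of the gene array, RefSeq genes of the GRCm38.p6 build were read between Lrrc55 and Ptprj, taken as its outer neighbours. Whether this run and the mm9 interval have the same ends was not checked. The gene counts of the run need not be those of the interval. The run held 334 genes, of which 293 were named Olfr, from Olfr987 to Olfr1274. Of these, 222 were protein-coding and 67 were pseudogenes. Among the 41 other genes, 3 were protein-coding (Fads2b, Pramel7 and Pramel6) and 0 were tRNA genes. All of chromosome 2 has only 8 tRNA genes in this annotation, so a count of 0 does not set the run apart. RefSeq promoters of 300 bases, from 250 before to 50 after a start, were found for 186 of the 222 coding receptor genes (83.8%). These 187 promoters had a median GC content of 32.0% and a median of 1 CpG, where the 31903 promoters of genes not named Olfr had 53.3% and 8. No CpG was present in 35.8% of them, against 4.6% of the promoters not named Olfr, and 5 or more in 1.60% against 63.7%. The 761 promoters of other Olfr genes were similar, with a median GC content of 36.7% and 1 CpG. The core of the B box, the motif that TFIIIC recognises, was searched on both strands as GGTTCGA; it was in 0 of the 187 promoters and in 297 of the 31903 (0.931%), which describes these letters in these windows only.

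Ptprj, a receptor-type tyrosine phosphatase gene, was taken as the outer neighbour that ends the run. Its promoter at the outermost start is shown beside a receptor promoter at the median GC content of the run, for contrast in base composition. Both are from RefSeq on GRCm38.p6, minus strand, 5′ to 3′, with each CG dinucleotide in capitals. Olfr1096 lies at chr2:86874753-86875052 and Ptprj at chr2:90580546-90580845 of that build, which are not mm9 positions.
Olfr1096: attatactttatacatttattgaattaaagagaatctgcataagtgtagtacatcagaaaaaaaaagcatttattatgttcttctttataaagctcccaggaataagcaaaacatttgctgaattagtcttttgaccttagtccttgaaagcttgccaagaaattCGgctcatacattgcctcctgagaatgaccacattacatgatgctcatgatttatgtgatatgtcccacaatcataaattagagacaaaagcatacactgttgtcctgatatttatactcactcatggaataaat
Ptprj: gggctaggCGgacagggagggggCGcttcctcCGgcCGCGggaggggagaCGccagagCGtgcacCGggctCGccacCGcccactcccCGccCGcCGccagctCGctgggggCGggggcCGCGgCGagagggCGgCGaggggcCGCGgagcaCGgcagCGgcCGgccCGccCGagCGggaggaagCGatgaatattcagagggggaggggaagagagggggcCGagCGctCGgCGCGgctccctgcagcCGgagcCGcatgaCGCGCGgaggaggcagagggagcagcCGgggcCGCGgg
The Olfr1096 promoter has 32.0% GC and 1 CpG, and the Ptprj promoter 79.3% GC and 42. This Ptprj promoter is not typical of promoters not named Olfr. Those had a median of 53.3% GC and 8 CpG, and a 95th percentile of 73.7% GC.

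H3K27me3 was nearly absent from the cluster in both genotypes. WT replicates 1 and 2 had 0 and 1 peaks there, and RbL replicates 1 and 2 had 0 and 2, with counts that overlap between the genotypes. At the density of the rest of chromosome 2, which was 13.7, 23.6, 24.4 and 29.3 peaks per Mb in the same order, the cluster would hold 63.2, 108.5, 112.1 and 134.9. Where the count was 0, a floor of 3 peaks, or 0.652 per Mb, would give a density 21.1-fold lower in WT replicate 1 and 37.4-fold lower in RbL replicate 1. These values are set by the floor and are not minima. The two-sided 95% exact interval, a stricter limit, starts at 17.1- and 30.4-fold lower for these libraries. The single peak of WT replicate 2 corresponds to a 108.5-fold lower density (95% exact binomial interval 19.5 to 4287), and the 2 of RbL replicate 2 to a 67.4-fold lower one (18.7 to 557). These intervals, like all others here, cover counting error only. All 4 libraries were lower in the cluster, with a mean log2 ratio of −6.68 ± 0.91 (SD, n = 4, 0.5 peaks added to each count) and a two-sided exact sign-flip permutation p of 0.125, the smallest that 4 libraries allow.

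TFIIIC kept a sizeable share of its usual density. It had 171 and 185 peaks in the WT replicates and 259 and 243 in the RbL replicates, or 37.2, 40.2, 56.3 and 52.8 per Mb. The rest of chromosome 2 had 87.3, 103.6, 127.5 and 130.1 per Mb, so the cluster was 2.35-, 2.58-, 2.26- and 2.46-fold lower. The RbL libraries had more peaks than the WT ones both inside the cluster and outside it, and the ratio of cluster to rest averaged 0.407 ± 0.027 over the WT pair and 0.424 ± 0.025 over the RbL pair (SD, n = 2 each). Over the 4 libraries the mean log2 ratio was −1.27 ± 0.08 (SD, n = 4), lower in 4 of 4, with the same smallest exact permutation p of 0.125.

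Both condensin II subunits were sparse. CAP-D3 had 5 peaks in WT and 1 in RbL, 1.09 and 0.217 per Mb against 7.63 and 5.71 on the rest of the chromosome. That is 7.02-fold lower in WT (95% exact interval 3.0 to 21.7) and 26.3-fold lower in RbL (4.71 to 1039). CAP-H2 had 3 peaks in WT and 1 in RbL, 0.652 and 0.217 per Mb against 19 and 19.4. Its density was 29.1-fold lower in WT (9.95 to 141) and 89.1-fold lower in RbL (16.0 to 3519). All 3 CAP-H2 peaks in WT had a score under 100, so that a minimum score of 100 left 0 in the cluster. Neither subunit has a second library in a genotype, so no test was made, and for each subunit the intervals of the 2 genotypes overlap.

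The mean log2 ratio was −1.27 for TFIIIC, −3.40 for CAP-D3, −5.27 for CAP-H2 and −6.68 for H3K27me3. The H3K27me3 values of the 2 libraries without a peak are set by the 0.5 peaks added and the length of the list, so no order between H3K27me3 and CAP-H2 is read from these means. TFIIIC and H3K27me3 differed by 5.42 (4 libraries each, no overlap), with an exact permutation p of 0.0286 and a Benjamini-Hochberg adjusted p of 0.171 over 6 pairs of antibodies. TFIIIC differed from CAP-D3 by 2.14 and from CAP-H2 by 4.00, each with an exact permutation p of 0.133 (adjusted 0.2), and H3K27me3 was 3.28 below CAP-D3 with the same p. H3K27me3 and CAP-H2, 1.41 apart, overlapped in range (exact permutation p 0.267, adjusted 0.32). CAP-D3 and CAP-H2 differed by 1.86, which 2 libraries against 2 cannot place below an exact permutation p of 0.333. No pair passed an adjusted threshold of 0.05, and none could have. The smallest two-sided exact permutation p that the design allows is 0.0286 for TFIIIC with H3K27me3. It is 0.133 for the 4 pairs of 1 of these with a condensin II subunit and 0.333 for the last. TFIIIC was fixed with formaldehyde alone, so its distance from the other antibodies and the fixation cannot be told apart.

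**Figure D1:**
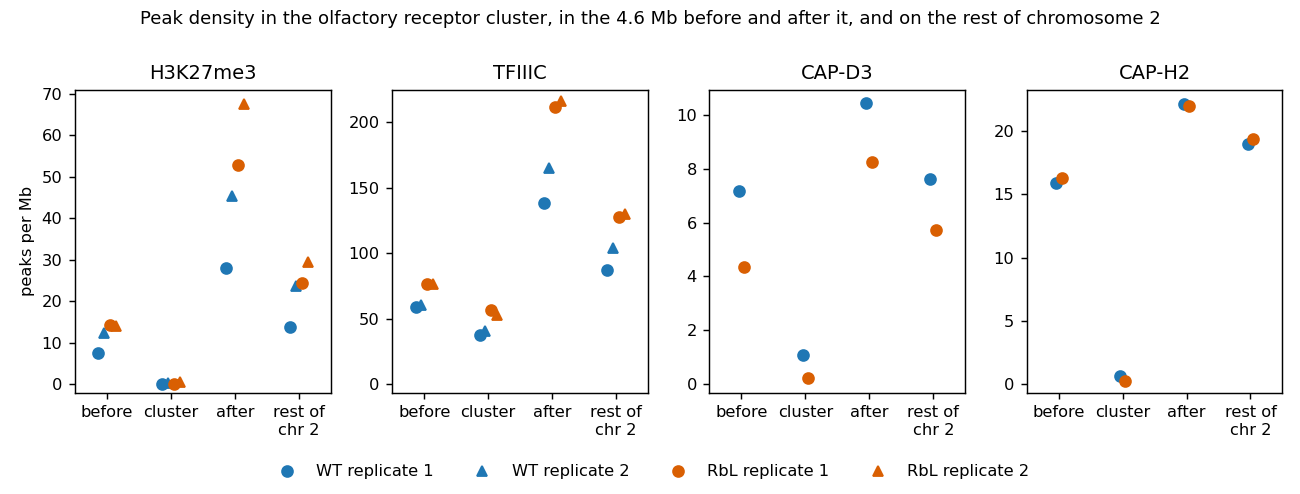
Peaks per Mb (vertical axis, linear, a separate scale per antibody) in the 4.6 Mb before the cluster, in the cluster, in the 4.6 Mb after it and on the rest of chromosome 2. Each point is 1 library, WT in blue and RbL in orange, and the cluster holds the lowest point of every library.

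The bases covered by peaks gave the same picture. TFIIIC peaks covered 129.7 and 146.6 kb of the cluster in the WT replicates and 220.6 and 207.1 kb in the RbL replicates, or 2.82%, 3.19%, 4.80% and 4.50% of it. On the rest of the chromosome they covered 6.52%, 8.31%, 11.9% and 12%. H3K27me3 covered 0%, 0.0118%, 0% and 0.0278% of the cluster, against 1.37% to 3.25% outside. CAP-D3 covered 0.0577% in WT and 0.0113% in RbL, against 0.583% and 0.511%, and CAP-H2 0.0393% and 0.0133%, against 2.02% and 1.97%.

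The 2 sides of the cluster were unlike each other. The 4.6 Mb before it were themselves sparser than the chromosome, with 7.39 to 14.1 H3K27me3 and 58.5 to 76.3 TFIIIC peaks per Mb over the 4 libraries. The 4.6 Mb after it were denser, with 28.0 to 67.6 and 138 to 216. CAP-D3 had 7.17 (WT) and 4.35 (RbL) per Mb before and 10.4 and 8.26 after, and CAP-H2 15.9 and 16.3 before and 22.2 and 22.0 after. Each of the 12 libraries was below both of its flanks in the cluster. In the 460 kb before the start, TFIIIC had 40, 39, 57 and 57 peaks (WT 1, WT 2, RbL 1, RbL 2), and in the first 460 kb inside, 15, 13, 19 and 14. At the other end the counts went from 18, 27, 34 and 32 in the last 460 kb inside to 36, 41, 54 and 58 in the next. These steps at both borders were present in all 4 libraries. Windows as poor in TFIIIC also lay farther out: the 6 windows of chr2:80700001-83460000 had TFIIIC means of at most 30.75, against 15.25 to 30 inside, and 1 of them was below all 10 inside. Their H3K27me3 means were 0.25 to 2.25, against 0 to 0.25 inside.

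For the other antibodies the sparse stretch ran past the borders. The nearest H3K27me3 peak before the start lay 180 to 208 kb away in the 4 libraries, and the nearest after the end 101 to 536 kb away. CAP-H2 had its last peak 230.4 kb (WT) and 230.5 kb (RbL) before the start, and CAP-D3 398.5 kb before it in both genotypes. After the end, CAP-H2 resumed at 362 and 441 kb and CAP-D3 at 12.1 kb in WT and 520 kb in RbL. TFIIIC had its next peak within 27.3 kb after the end in every library, and its last peak within 1.08 kb before the start in all but WT replicate 1 (84.5 kb).

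The stretches without a peak were among the longest of the chromosome, apart from those of TFIIIC. In H3K27me3 WT replicate 1 and RbL replicate 1, 1 empty stretch covered the whole cluster, 5.17 and 5.34 Mb long. WT replicate 2 had an empty stretch of 5.02 Mb and RbL replicate 2 one of 2.37 Mb. By length these ranked second, first, first and second among the gaps of chromosome 2 for WT 1, RbL 1, WT 2 and RbL 2. The longest CAP-H2 gap was 3.17 Mb in WT and 4.70 Mb in RbL, and the longest CAP-D3 gap 1.65 and 3.84 Mb, in each case ranking second in WT and first in RbL. The longest TFIIIC gaps were 145, 136, 82.9 and 111 kb, at ranks 44, 53, 129 and 55. With all 12 lists together, the longest empty stretch in the cluster was chr2:89410635-89486285, 75.7 kb long and at rank 28 on the chromosome.

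**Figure D2:**
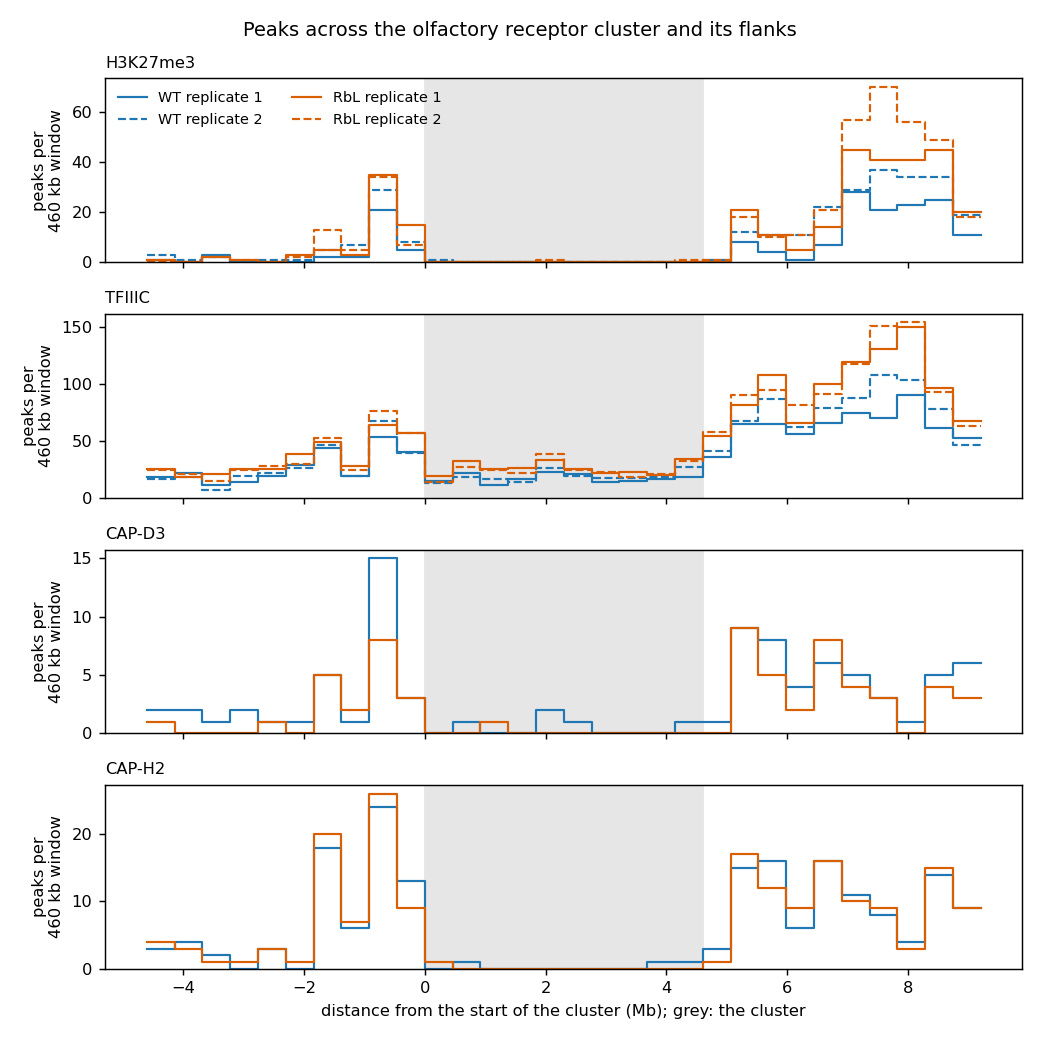
Peaks per window of 460 kb (vertical axis) by distance from the start of the cluster in Mb (horizontal axis), 1 line per library, with the cluster in grey. TFIIIC drops to 11 to 38 peaks per window inside, while the other 3 antibodies stay at 0 to 2.

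The position of the cluster was read among 531 windows of 4.6 Mb, laid over the genome without chromosome Y. Of these, 37 were on chromosome 2. The windows were laid so that the cluster fills 1 of them exactly, while another sparse stretch can be split between neighbouring windows. This can favour a low rank for the cluster. On chromosome 2, 0 of the other 36 windows had a lower mean of H3K27me3, CAP-D3 or CAP-H2 peaks, with the next lowest at 3.25, 4.5 and 2.5 against 0.75, 3 and 2 in the cluster. The medians there were 76, 23.5 and 77.5. By single list, 1 other window of chromosome 2 had the same count as the cluster in H3K27me3 WT replicate 1, CAP-D3 RbL and CAP-H2 WT. For TFIIIC, 7 windows of chromosome 2 were lower than the 214.5 of the cluster, and the median was 325.75. Over the genome, 4 other windows had an H3K27me3 mean at or below that of the cluster, 7 a CAP-D3 mean, 5 a CAP-H2 mean and 113 a TFIIIC mean. Among the 497 autosomal windows these numbers were 2, 1, 1 and 87.

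Windows as poor in TFIIIC were mostly not as poor in the rest. Of the 113 other windows with a TFIIIC mean at or below the cluster (26 on chromosome X, 87 autosomal), 3 were at or below it for H3K27me3, 6 for CAP-D3, 4 for CAP-H2 and 1 for all of these. Over the genome, 4, 7 and 5 other windows were at or below it for H3K27me3, CAP-D3 and CAP-H2, so most of these were also poor in TFIIIC. The medians of the 113 windows were 11.75 H3K27me3, 10.5 CAP-D3 and 27 CAP-H2 peaks, against 52.25, 23.5 and 73.5 over all 531. Windows poor in TFIIIC were thus poorer in the other antibodies as well. How much of each window can be aligned uniquely was not measured, since no mm9 genome was used, and its part in these counts was not tested.

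**Figure D3:**
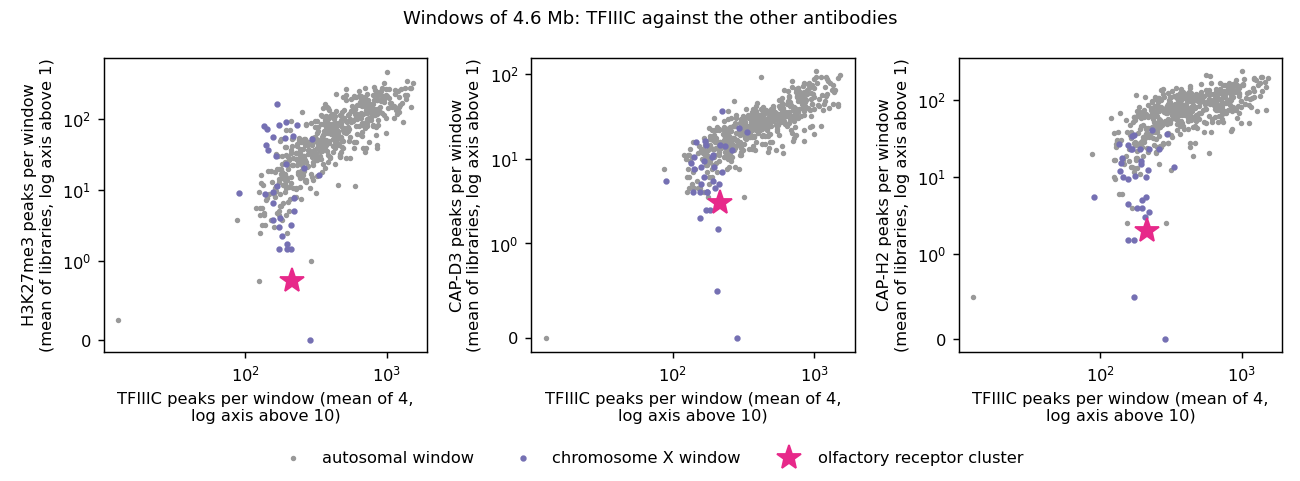
Each point is a 4.6 Mb window of the genome, with the mean TFIIIC peak number of 4 libraries on the horizontal axis and the mean of H3K27me3 (4 libraries), CAP-D3 or CAP-H2 (2 each) on the vertical axis, both log-scaled above the values named. The cluster, marked by a star at 214.5 TFIIIC peaks, lies at 0.75, 3 and 2 on the vertical axes, below most windows of similar TFIIIC number.

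The 13 peaks outside the TFIIIC lists were isolated and low in score. All are given here, which goes beyond the rule for naming regions, so several were chosen after their values were seen. The score is the one deposited by the authors for each peak. It depends on the read number and the input of a library, so it ranks peaks within a list only. H3K27me3 had chr2:85414255-85414798 in WT replicate 2 (score 154), and chr2:87366135-87366770 (score 106) and chr2:89736686-89737327 (score 67.7) in RbL replicate 2. The second of these overlapped a TFIIIC peak in both RbL libraries, and the last lay 1350 bases from the TFIIIC region that leads the cluster by its lowest score in any of the 4 libraries.

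CAP-D3 in WT had peaks at chr2:85983565-85984058 (score 278), chr2:87372464-87373022 (297), chr2:87475257-87475811 (249), chr2:87900436-87900987 (350) and chr2:89555512-89556006 (239). No TFIIIC peak overlapped them, and the nearest lay 631 to 15739 bases away. The single CAP-D3 peak in RbL, chr2:86582631-86583150 (score 101), overlapped a TFIIIC peak in all 4 libraries. CAP-H2 in WT had chr2:85861496-85862094 (score 66.1), which overlapped TFIIIC in WT replicate 1 and both RbL replicates, and chr2:89036278-89036876 (50.4) and chr2:89818585-89819196 (73.6), which overlapped none. The CAP-H2 peak in RbL was chr2:85644554-85645165 (score 136), also away from TFIIIC.

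Each of the 13 had a score below the median of its own list, ahead of between 0.356% and 49.2% of it, and was 494 to 642 bases wide, narrower than the median of its list. None was overlapped by a peak of another list outside TFIIIC, of the same antibody or of another. With so few regions this is a loose limit: 0 of 6 CAP-D3 regions were called in both genotypes, which allows up to 45.9% (exact interval), where 42.8% of the 1607 regions on the rest of the chromosome were. For CAP-H2 it was 0 of 4 (up to 60.2%) against 53.0% of 4219. For the overlap of the condensin II subunits, 0 of 6 CAP-D3 regions overlapped CAP-H2 (up to 45.9%). Outside, 62.1% of 1607 did (95% exact interval 59.7 to 64.5). Read the other way, 0 of 4 CAP-H2 regions overlapped CAP-D3 (up to 60.2%), against 22.8% of 4219 outside. The 6 CAP-D3 regions are not replicates, and 5 of them come from 1 library. All are low in score, while the regions outside include those of high score, and the cluster holds only 4 CAP-H2 regions. No difference in overlap is therefore read from these shares.

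**Figure D4:**
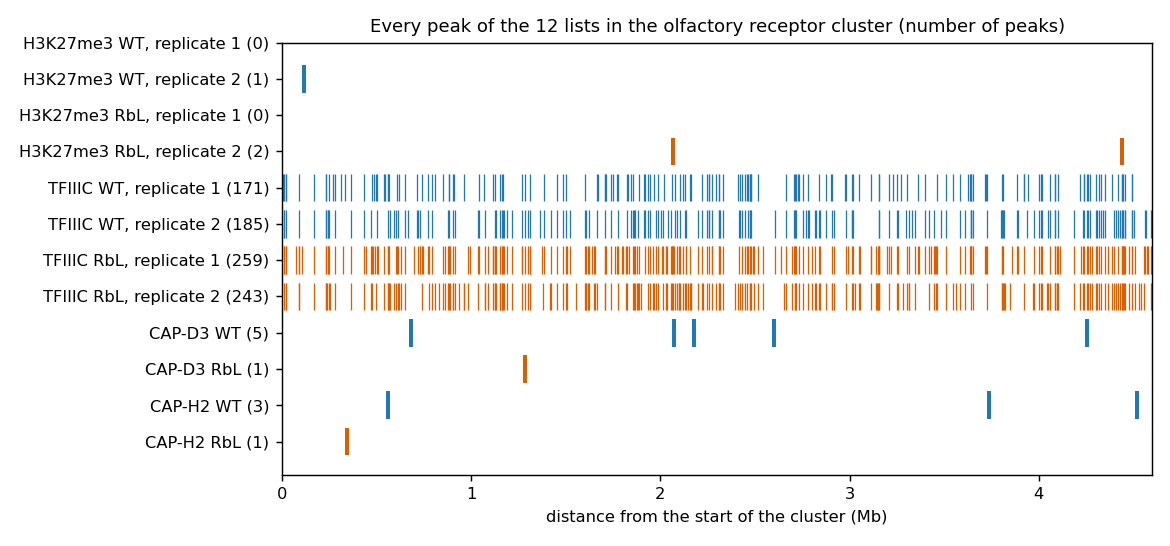
Every peak in the cluster, as 1 tick per peak at its distance from the cluster's start in Mb (horizontal axis) with 1 row per library and its number of peaks in brackets. TFIIIC runs through the whole stretch in 4 of 4 libraries, and the 13 ticks of the other lists stand apart from each other.

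TFIIIC peaks were spread along the whole cluster at wide spacing. In bins of 100 kb, 44 of the 46 held a peak in all 4 libraries and 0 were empty of TFIIIC. The median distance between neighbouring peaks was 20.4, 16.1, 12.5 and 12.6 kb (WT 1, WT 2, RbL 1, RbL 2), against 4.87, 3.86, 3.27 and 3.17 kb outside. When the peaks of the 4 libraries were merged into regions, closing gaps of up to 1 kb lowered their number from 32167 to 19181 outside. In the cluster it fell only from 354 to 321, so close neighbours were commoner outside. These distances therefore do not measure density alone. Among the 10 windows of 460 kb, chr2:87140001-87600000 held the most peaks, 23, 26, 33 and 38. The window chr2:85300001-85760000 held the fewest by the mean, 15, 13, 19 and 14. The highest count of a library in any of the 10 windows stayed below its count in the window just outside either border.

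In median width and score, the TFIIIC peaks that were present resembled those elsewhere on the chromosome. Their median width was 671, 698, 779 and 763 bases, against 639, 676, 771 and 758 outside. Their median score was 168, 326, 220 and 283, against 172, 287, 214 and 285. When the chromosome 2 peaks of a list were split into 4 equal classes by score, the density in the cluster was lower in every class of every library, by 2.00- to 3.41-fold. In the class with the highest scores the values were 2.23-, 2.29-, 2.41- and 2.3-fold. Peaks wider than 2 kb made up 0.585%, 0.541%, 1.93% and 0.823% in the cluster (1, 1, 5 and 2 peaks) and 0.645%, 1.66%, 4.03% and 4.13% outside.

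**Figure D5:**
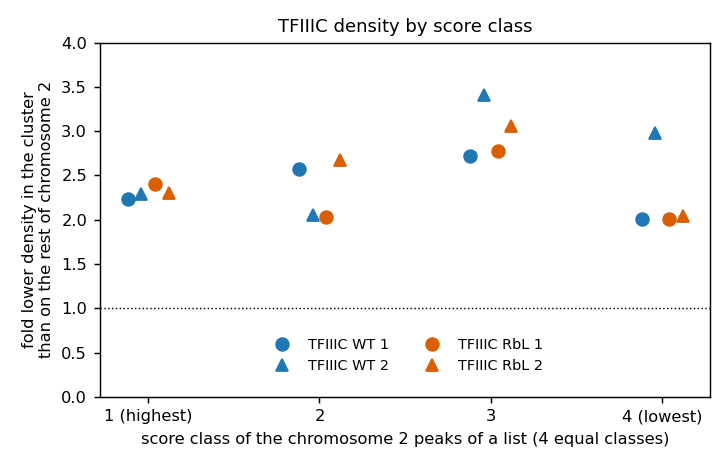
Fold by which TFIIIC peaks were less dense in the cluster than on the rest of chromosome 2 (vertical axis, linear from 0), for 4 equal score classes of the chromosome 2 peaks of a list (horizontal axis), with 1 point per library. All 16 points lie between 2.00 and 3.41, above the dotted line of equal density at 1.

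Merging the TFIIIC peaks of the 4 libraries where they overlapped gave 354 regions in the cluster. A peak in all 4 libraries was found in 86 (24.3%, 95% exact interval 19.9 to 29.1), against 5844 of 32167 (18.2%, 17.7 to 18.6) on the rest of the chromosome. This difference depended on how peaks were joined: with gaps of up to 1 kb closed, the shares were 26.2% of 321 (21.4 to 31.3) and 27.3% of 19181. A single library accounted for 117 regions (33.1%, against 37.3% outside). Both WT libraries shared 102 regions, of which 84.3% (75.8 to 90.8) also had one in both RbL libraries, against 77.4% outside, a value inside that interval. With gaps of up to 1 kb closed, these shares were 84.0% (75.3 to 90.6) and 82.6%.

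The region chr2:89738678-89740123 had the highest lowest score over the 4 libraries, with 1083, 3100, 1866 and 2792. The 3100 is the most frequent score in the list of WT replicate 2, shared by 643 peaks with 103 above it, so it may be a ceiling of the scoring. It was followed by chr2:85534009-85537455 (942, 778, 1508 and 1866), which was also the widest at 3447 bases, and by chr2:87774080-87777104 (810, 767, 1679 and 1715). Next came chr2:87521267-87522906 (719, 1750, 1852 and 1470) and chr2:88550773-88552199 (692, 885, 1248 and 1625). These 5 stand at 4.44, 0.234, 2.47, 2.22 and 3.25 Mb from the start, so the leading regions were spread along the cluster.

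No difference between the genotypes in the density of the cluster relative to the chromosome passed a test. For TFIIIC the mean log2 ratio of cluster to rest averaged −1.29 ± 0.10 over the WT pair and −1.24 ± 0.08 over the RbL pair (SD, n = 2 each), a difference of 0.06 with an exact permutation p of 0.667, where the smallest possible is 0.333. Its sign was not stable: the difference was −0.07 by covered length (exact permutation p 0.667), −0.05 with equal numbers of top-scoring peaks and −0.01 without WT replicate 2. For H3K27me3 the difference was −0.20 (exact permutation p 1), which turned to 0.20 without WT replicate 2 and to 0.83 without RbL replicate 1. With 3 peaks in 4 lists, a change in H3K27me3 was not detectable.

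The TFIIIC share of peaks per window of 460 kb was also compared between genotypes with limma over 5581 windows of the genome. It called 0 windows at a Benjamini-Hochberg adjusted p of 0.05 (0% of those tested, with 509 at an unadjusted p under 0.05), and 0 of the 10 in the cluster, none of which reached an unadjusted p of 0.05. The median log2 difference, RbL minus WT, was 0.08 in the 10 windows and 0.01 over all 5581. The smallest p in the cluster belonged to chr2:86220001-86680000, with 11, 16, 25 and 24 peaks in WT 1, WT 2, RbL 1 and RbL 2 and a log2 difference of 0.42 ± 0.21 (SE; limma adjusted p 0.609). Both RbL shares were above both WT shares in 2 of the 10 windows, against 20.6% of all windows, and below them in 1 of 10, against 20.5%. Both counts are near the background. Without WT replicate 1 or WT replicate 2, limma called 258 and 958 windows of the genome, where the lone WT library is assumed to vary like the RbL pair, and again 0 in the cluster. For H3K27me3, 2222 windows had the mean of 5 peaks needed for the test, and 0 of the 10 in the cluster did.

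A few TFIIIC regions had a peak in both libraries of 1 genotype and none of the other. There were 3 of the WT kind (0.847% of 354, exact interval 0.175 to 2.46, against 1.69% outside) and 37 of the RbL kind (10.5%, 7.47 to 14.1, against 9.58%). The WT regions were chr2:87211778-87212544 (scores 163 and 185), chr2:87144361-87145030 (115 and 244) and chr2:86015355-86016008 (113 and 330). The leading RbL regions were chr2:87334679-87335659 (533 and 346), chr2:88441676-88442652 (337 and 706) and chr2:88611249-88612240 (345 and 337). The RbL lists were also longer on the rest of the chromosome, and the read numbers behind them are unknown. The 4 combinations of 1 WT with 1 RbL library held 8 to 12 regions each, more than the 3 of the WT pair and fewer than the 37 of the RbL pair.

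The antibodies hardly met in the cluster, where regions other than those of TFIIIC were few. Merging the peaks of all 12 lists gave 364 regions, of which 361 had 1 antibody, 3 had 2 and 0 had 3 or more, and at most 5 lists met in 1 region. Of the 354 TFIIIC regions, 1 overlapped H3K27me3 (0.282%, exact interval 0.00715 to 1.56), against 11.9% outside. The same number, 1 of 354, overlapped CAP-D3, against 2.38%, and 1 of 354 CAP-H2, against 5.98%. The cluster held only 3 H3K27me3, 6 CAP-D3 and 4 CAP-H2 regions, so these shares were bound to be low wherever those regions lay. Read from the other side, 1 of 3 H3K27me3 regions, 1 of 6 CAP-D3 regions and 1 of 4 CAP-H2 regions overlapped TFIIIC, against 44.9%, 45.3% and 42.3% outside, all within the exact intervals that such counts allow. Regions with a peak in all 12 lists numbered 89 in the genome and 7 on chromosome 2, and 0 of them lay in the cluster.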

How the data were processed

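Peak lists of 12 immunoprecipitated libraries were used; the 8 inputs have none here. The submitters' processing notes name Bowtie2 2.3.0, MACS 1.4.0rc2 and the mm9 build, and each library has its own deposited list. The deposited score of a peak has no column name; MACS writes a multiple of the negative log10 of a p-value there. Read numbers were not analysed here, and their part in the length of a list was not tested. By the labels, 1 input serves CAP-D3, CAP-H2 and H3K27me3 replicate 2 in WT, and 1 serves both condensin II subunits and H3K27me3 replicate 1 in RbL.

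Groups came from the sample labels. Density is peaks per Mb, with the rest of chromosome 2 taken from its first to its last peak. Log2 ratios of densities had 0.5 peaks added to each count, and those of covered length 500 bases. Differences were tested by two-sided exact permutation over libraries. Windows of 460 kb were laid so that 10 fill the cluster, and peaks were assigned by midpoint. Log2 shares per 1000 peaks (pseudocount 0.5, mean of at least 5 peaks) were compared with limma 3.58.1 in R 4.3.3. The fit used a trend and Benjamini-Hochberg adjustment. A check on simulated data drew the libraries independently, while same-numbered replicates here deviated together. That check therefore does not bear on the absence of calls. Shares have exact (Clopper-Pearson) 95% intervals. Alternatives were other comparison regions, covered length, midpoints, a score of at least 100, equal numbers of peaks, other pseudocounts, filters and windows, autosomes alone, other overlap rules, a replicate block and leaving out each replicate or the regions of all 12 lists.

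Regions named per antibody are the 5 found in all libraries with the highest minimum score, the 3 per direction found in 1 genotype only, the widest, the windows with most and fewest peaks, and the longest empty stretch. The cluster and these lists were chosen with earlier results of these data known. Sequences and gene names are from RefSeq (GRCm38.p6). Coordinates are 1-based. Python 3.11.15, scipy 1.17.1 and matplotlib 3.10.9 were used.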

Additional observations from a re-analysis of the deposited data

How the results depend on the processing

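Of 173 alternative values over 43 results, 8 changed sign and 10 moved beyond the spread of replicates, the counting interval or, for counts, 1.5 times; the cause was not tested unless stated. The other 155 kept their direction and stayed within those limits or on the same side of the threshold, which does not mean that they kept their size: with a score of at least 100, CAP-H2 in WT went from −4.64 to −6.84, as 0 of its 3 peaks were left, and the difference of H3K27me3 and CAP-H2 from −1.41 to −0.58. Every alternative left each antibody less dense in the cluster than in its comparison region: the log2 ratio ranged from −7.08 to −6.18 for H3K27me3, from −1.42 to −1.09 for TFIIIC, from −3.09 to −2.23 and −4.72 to −3.97 for CAP-D3 in WT and RbL, and from −6.84 to −4.43 and −6.48 to −5.57 for CAP-H2. For TFIIIC it was −1.42 against the 4.6 Mb on each side, −1.09 against all other placed chromosomes and −1.33 by covered length. Joining nearby peaks was not an alternative for these ratios. With gaps of up to 1 kb closed, the merged TFIIIC regions went from 354 to 321 in the cluster and from 32167 to 19181 outside. The size of the TFIIIC count ratio therefore depends on how peaks are cut. With no peaks added, H3K27me3 gave no value, since 2 lists had 0 peaks in the cluster. The genotype difference of TFIIIC density (0.06) was −0.070 by covered length and −0.047 with equal numbers of top-scoring peaks, and ranged from −0.010 to 0.12 when each replicate was left out (−0.0027 without RbL replicate 1). That of TFIIIC covered share (−0.070) ranged from −0.16 to 0.016 when each replicate was left out, and was −0.18 with equal numbers of top-scoring peaks. For H3K27me3 the ranges without each replicate were −1.23 to 0.83 for density and −1.04 to 0.46 for covered share. Leaving out each replicate gave 0 to 958 called windows for TFIIIC and 0 to 145 for H3K27me3 over the genome, fits in which a lone library is assumed to vary like the others. TFIIIC had 1 called window on autosomes alone, and H3K27me3 2 with no filter. Same-numbered replicates deviated together (correlation 0.511 over 5581 TFIIIC windows and 0.392 over 2222 of H3K27me3), but with 2 pairs and no label of a shared batch the numbers do not pair the libraries. A fit with the replicate number as a block called 247 TFIIIC and 10 H3K27me3 windows and 0 in the cluster, and within-number differences of TFIIIC density were 0.05 and 0.06 (mean 0.06). The read depth is unknown, and 0 to 5 peaks per list limit every statement on H3K27me3 and condensin II to the intervals given.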

Other observations

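A few other windows of 4.6 Mb came near or below the olfactory receptor cluster in H3K27me3 peaks, and are given as values, chosen after they were seen. The window chr15:16300001-20900000 had 0, 2, 0 and 1 H3K27me3 peaks (WT 1, WT 2, RbL 1, RbL 2) and 91 to 154 TFIIIC peaks, but 10 CAP-H2 peaks in each genotype, against 3 and 1 in the cluster. The window chr7:7100001-11700000 had 0, 0, 3 and 1 H3K27me3 peaks and 2 (WT) and 3 (RbL) CAP-H2 peaks with 224 to 357 TFIIIC peaks, more TFIIIC than in the cluster in each of the 4 libraries. On chromosome X, the window chrX:25500001-30100000 had 0 peaks in all 8 lists of H3K27me3, CAP-D3 and CAP-H2 and 104, 357, 302 and 383 TFIIIC peaks. The window chr7:39300001-43900000 was the single one at or below the cluster for all 4 antibodies, with 11 to 15 TFIIIC peaks.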
